A study of Arabidopsis thaliana with 12 samples.

Results

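The ribosomal RNA of a cell is cut, folded and chemically modified in the nucleolus, and most of its modified bases are placed by small nucleolar ribonucleoproteins (snoRNPs). A snoRNP carries a guide RNA that pairs with the ribosomal RNA and a set of core proteins that act on the paired site. Box C/D snoRNPs add methyl groups to ribose and hold the methyltransferase fibrillarin on a scaffold of NOP56 and NOP58. Box H/ACA snoRNPs convert uridine to pseudouridine and hold the pseudouridine synthase dyskerin (NAP57 in plants, also CBF5) together with GAR1, NHP2 and NOP10. Nucleolin (NUC1) binds ribosomal DNA and precursor ribosomal RNA and is one of the abundant proteins of the nucleolus.

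Described here are 10 genes for these proteins, listed by locus. The rule for the list uses no measured value, but it was drawn up with earlier results of these data known. They are *NUC1* (AT1G48920), *FIB1* (AT5G52470) and *FIB2* (AT4G25630) for fibrillarin, *NOP56* (AT1G56110), a NOP56-type gene (AT3G12860), NOP58-type genes (AT3G05060 and AT5G27120), *NAP57* (AT3G57150), *NHP2* (AT5G08180) and *GAR1* (AT3G03920). On the Affymetrix ATH1 array 9 of the 10 genes had a probe set listed under their locus, 1 each, which makes 9 of the 22746 probe sets tested. AT5G27120 had none. A probe set listed under its relative AT5G27140, with log2 signals of 3.42 to 4.20, lies outside the rule and was not used. NOP58-type below means AT3G05060.

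*Arabidopsis thaliana* seedlings of ecotype Columbia were either wild-type (WT) or *eif3k* mutants. The mutant is a single line that carries a T-DNA in an intron of the eIF3k gene, and eIF3k is one of the subunits outside the core of translation initiation factor eIF3. Aerial parts of 11-day-old seedlings, grown on agar with sucrose, were lysed and run on sucrose gradients, and the light fractions were pooled as non-polysomal mRNA (NP) and the heavy ones as polysomal mRNA (PL). There were 12 arrays in all, with 3 replicates per genotype in each fraction. The labels describe a long day, whereas the methods of the study describe continuous light. The translation state (TL) of a gene in a sample is its log2 PL signal minus its log2 NP signal, so that a TL of 1 stands for a signal in polysomes that is 2 times the signal outside them. All arrays were normalized together, so that a TL of 0 does not stand for an equal split of the mRNA. The samples are whole shoots, in which fewer cells that express a gene cannot be told apart from less mRNA per cell.

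Signals for the aerial markers *RBCS1A*, *CAB3* and *LHCA1* were 12.08 to 15.26, and those for the root markers *COBL9*, *PRP3* and *CASP1* lay at or near the lowest deposited value of 2.33, with a highest value of 3.05. The 4 dividing-cell markers on the array were dim in both genotypes, at 2.33 to 4.74. The seed storage markers *CRA1* and *OLEO1* were raised in *eif3k* replicate 3, to PL signals of 8.11 and 4.27, against at most 3.39 and 2.44 in WT, and their part in the results was not tested. The mRNA of the targeted gene was still measured in the mutant: NP signals of eIF3k in WT were 9.26, 9.45 and 9.01 and those in *eif3k* 7.30, 7.93 and 8.05. Where its probes lie relative to the insertion is not known. Arrays of replicates 1 and 2 form array batch 1, and those of replicate 3 were hybridized separately on a different day. WT replicate 3 stood apart from the other 5 samples. Its TL values correlated with theirs at r = 0.297 to 0.362 across probe sets, against 0.741 to 0.896 among the others. Its median TL over the 7182 brighter probe sets (mean log2 signal of at least 5) was -0.44, against 0.03 to 0.12. Values without it are given below where it moves a result. They leave replicate 3 and its array batch in *eif3k* only.

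The snoRNP mRNAs were spread over a wide range of signal, and 8 of the 9 probe sets counted as brighter. The lowest and highest log2 signals over the 12 arrays were 8.59 and 10.57 for *FIB1*, 7.27 and 8.81 for *GAR1*, 5.67 and 9.01 for *NUC1*, 5.73 and 8.41 for *NHP2*, 5.77 and 7.98 for *FIB2*, 5.48 and 6.77 for NOP58-type, 4.50 and 6.86 for *NAP57* and 3.73 and 6.25 for *NOP56*. These ranges belong to different probes and do not rank the genes by abundance. The NOP56-type gene AT3G12860 stayed at 2.73 to 3.13 on all arrays, near the lowest deposited value, and its TL values (-0.15 to 0.40) are of little use.

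**Figure D1:**
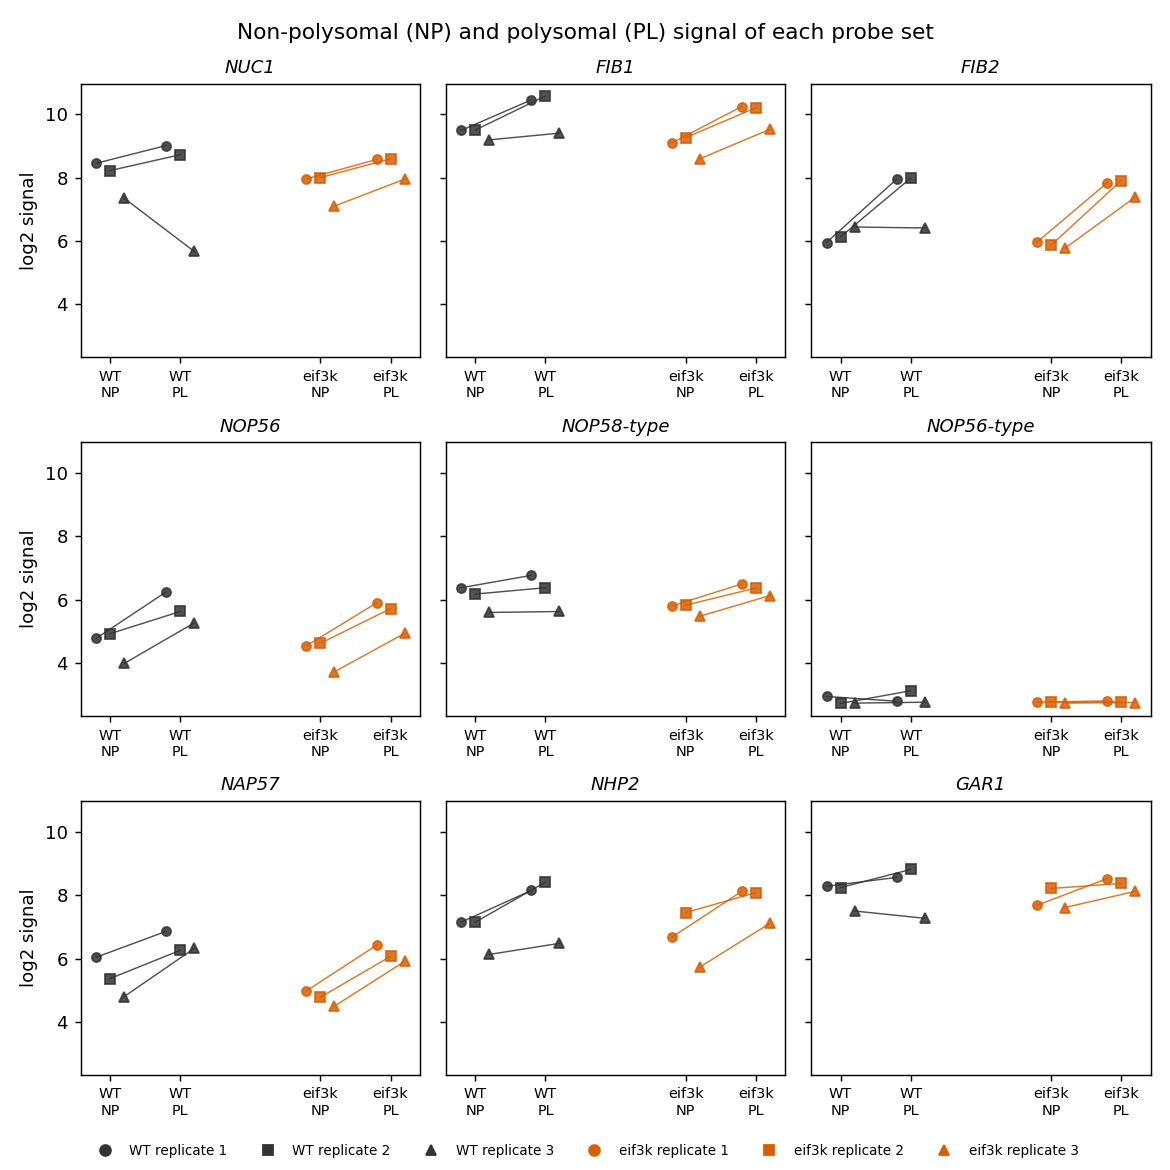
Log2 signal of each of the 9 probe sets in the non-polysomal (NP) and polysomal (PL) fractions of WT (dark) and *eif3k* (orange), where a line joins the fractions of 1 replicate and the marker shape gives the replicate. Lines slope upward for all 9 probe sets in the 3 *eif3k* replicates, while WT replicate 3 (dark triangles) falls for *NUC1*, from 7.35 to 5.67, and hardly moves for *FIB2*.

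In both genotypes most of these mRNAs had more signal in polysomes than outside them. The median TL of the 9 probe sets was 0.75 in WT and 1.01 in *eif3k*, beside -0.10 and 0.09 over the brighter probe sets and 0.00 over all. The WT median was 0.855, with 9 of 9 above 0, when WT replicate 3 was left out. The mean TL was above 0 for 8 of 9 probe sets in WT, with *NUC1* as the exception, and for 9 of 9 in *eif3k*, as for 45.2% and 53.9% of the brighter probe sets. With each sample's TL centred on its brighter probe sets the count in *eif3k* was 8 of 9, since the NOP56-type value turned to -0.06. In the *eif3k* samples all 9 probe sets had a TL above 0 in 3 of 3 replicates, as did 41.5% of the brighter probe sets and 20.7% of all. In WT this held for 5 of 9, against 23.1% and 12.3%. The mRNAs of *NAP57* and *NOP56* passed the test of TL against 0 in both genotypes (limma, adjusted p under 0.05 over all probe sets and a TL of at least 1). These are 2 of 9 probe sets in each genotype, where 2.01% of all probe sets were called higher in PL in WT and 2.18% in *eif3k*, and 5.53% and 5.67% of the brighter ones.

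*NAP57*, the dyskerin gene, had NP signals of 6.04, 5.37 and 4.80 in WT replicates 1, 2 and 3 and of 4.98, 4.78 and 4.50 in those of *eif3k*. Its PL signals in WT were 6.86, 6.26 and 6.32 and those in *eif3k* 6.42, 6.07 and 5.91. In every replicate the polysomal signal was the higher one, and NP and PL values did not overlap within a genotype, with 6.04 as the highest NP and 6.26 as the lowest PL value in WT. The TL values were 0.82, 0.89 and 1.52 in WT and 1.44, 1.29 and 1.41 in *eif3k*, so the mutant replicates lay close together and WT replicate 3 was the highest of all 6. The mean TL was 1.08 in WT (SE 0.15, adjusted p = 0.0308 by limma) and 1.38 in *eif3k* (SE 0.15, adjusted p = 0.0201). With the replicate number as a block, adjusted p was 0.0916 in WT and 0.0701 in *eif3k*, and neither was called. Without WT replicate 3 the mean TL in WT was 0.86, under the minimum change, while *eif3k* was still called (adjusted p = 0.00618).

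*NOP56*, which encodes a scaffold protein of box C/D snoRNPs, had NP signals of 4.78, 4.93 and 3.99 in WT and of 4.55, 4.63 and 3.73 in *eif3k*. Its PL signals in WT were 6.25, 5.63 and 5.27 and those in *eif3k* 5.90, 5.72 and 4.94. All 3 PL values of a genotype lay above all its NP values. In *eif3k* this also held for *FIB1* (lowest PL 9.52, highest NP 9.26), *FIB2* (7.38 and 5.96) and NOP58-type (6.13 and 5.83). The share over all probe sets was not counted. Replicate 3 of *NOP56* was the dimmest in both fractions of both genotypes. TL was 1.47, 0.70 and 1.28 in WT and 1.35, 1.09 and 1.21 in *eif3k*. The mean TL was 1.15 in WT (SE 0.16, adjusted p = 0.031) and 1.22 in *eif3k* (SE 0.16, adjusted p = 0.0283). With the replicate block adjusted p was 0.0644 and 0.0622, and neither was called. Without WT replicate 3 the WT mean was 1.08 (adjusted p = 0.0781), and *eif3k* was still called (0.0371). Leaving out WT replicate 1 or 2, or any 1 of the *eif3k* replicates, also ended the WT calls of both genes. The *eif3k* call of *NAP57* was lost without WT replicate 2, and that of *NOP56* without WT replicate 1. Both were lost without any 1 of the *eif3k* replicates. After quantile normalization *NAP57* was called in neither genotype, and with the fractions not paired *NOP56* was called in neither.

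*FIB2* had the highest mean TL of the 9 in both genotypes, and its WT value rested on replicates 1 and 2. The NP signals of this fibrillarin gene were 5.95, 6.13 and 6.44 in WT and, in *eif3k*, 5.96, 5.86 and 5.77. Its PL signals in WT were 7.95, 7.98 and 6.41 and those in *eif3k* 7.83, 7.90 and 7.38. Of the 6 samples 5 had a TL of 1.61 or more (2.00 and 1.85 in WT, 1.87, 2.04 and 1.61 in *eif3k*), while WT replicate 3 had -0.03. The mean TL was 1.27 in WT (SE 0.44, adjusted p = 0.207) and 1.84 in *eif3k* (SE 0.44, adjusted p = 0.0903), and neither passed. As in the other tests of TL against 0, the SE was pooled over both genotypes. The SD of the TL values was 1.13 in WT and 0.22 in *eif3k*. Without WT replicate 3 the means were 1.92 and 1.84 and both were called (adjusted p = 0.0189 and 0.011).

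*FIB1*, the other fibrillarin gene, had NP signals of 9.49, 9.50 and 9.19 in WT and of 9.09, 9.26 and 8.59 in *eif3k*. Its PL signals in WT were 10.45, 10.57 and 9.40 and those in *eif3k* 10.24, 10.20 and 9.52. TL was thus near 1 in every sample but WT replicate 3, with values of 0.96, 1.07 and 0.21 in WT and 1.15, 0.94 and 0.93 in *eif3k*. The mean TL was 0.75 in WT (adjusted p = 0.103) and 1.01 in *eif3k* (adjusted p = 0.0523). Without WT replicate 3 the means of 1.01 and 1.01 were both called (0.0209 and 0.0114).

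The NOP58-type gene, for the other scaffold protein of box C/D snoRNPs, had smaller TL values than *NOP56* in each of the 6 samples. The WT values were 0.39, 0.20 and 0.03 and those of *eif3k* 0.70, 0.54 and 0.65. The *eif3k* mean of 0.63 (SE 0.08) had an adjusted p of 0.0234 but lay under the minimum change, and the WT mean was 0.21 (adjusted p = 0.231). In signal it was one of the steadier genes, with NP values of 6.38, 6.18 and 5.60 in WT and 5.80, 5.83 and 5.48 in *eif3k*, and PL values of 6.77, 6.38 and 5.63 in WT and 6.50, 6.37 and 6.13 in *eif3k*.

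Of the other H/ACA proteins, NHP2, an RNA-binding subunit, had TL values of 1.00, 1.26 and 0.35 in WT and 1.45, 0.63 and 1.38 in *eif3k*. Its means of 0.87 and 1.15 did not pass (adjusted p = 0.142 and 0.0734). GAR1, a subunit that contacts dyskerin, had 0.28, 0.57 and -0.23 in WT and 0.84, 0.16 and 0.51 in *eif3k*, with means of 0.21 and 0.50 (adjusted p = 0.571 and 0.25). The WT means of *NHP2* and *GAR1* were 1.13 and 0.425 without WT replicate 3. For both genes the WT and *eif3k* values overlapped, and WT replicate 3 was the lowest of the WT samples.

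*NUC1* depended most on a single array. Its NP signals in WT were 8.45, 8.22 and 7.35 and those in *eif3k* 7.96, 8.00 and 7.10, and its PL signals in WT were 9.01, 8.72 and 5.67 and those in *eif3k* 8.57, 8.59 and 7.95. The PL value of WT replicate 3 was thus more than 2 log2 units below every other PL value. TL was 0.56, 0.50 and -1.68 in WT and 0.61, 0.59 and 0.85 in *eif3k*. The WT mean of -0.21 (SE 0.49) became 0.53 without that sample, with an adjusted p of 0.0478, still under the minimum change.

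**Figure D2:**
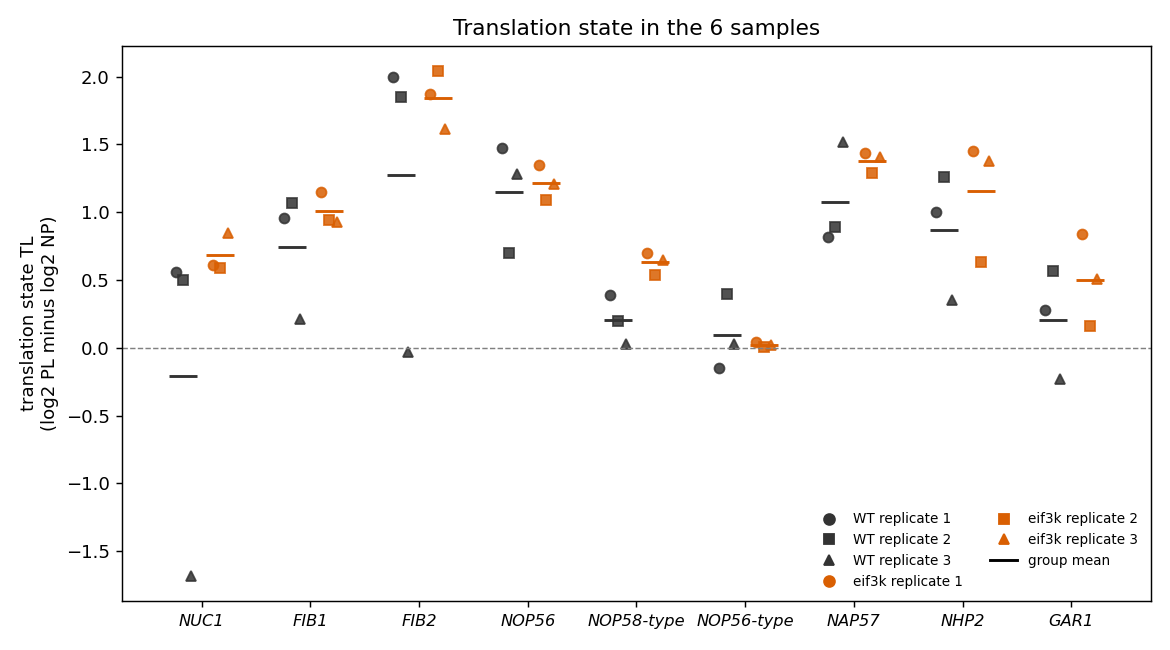
Translation state (TL, log2 PL minus log2 NP) of the 9 probe sets in each of the 6 samples, with WT in dark markers, *eif3k* in orange and bars for the group means. *NAP57* and *NOP56* lie between 0.70 and 1.52 in all 6 samples, and WT replicate 3 (dark triangle) is far below the other samples for *FIB2* and *NUC1*.

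The fibrillarin genes, and genes for partners in the same particle, differed in TL for some pairs and little for another. The fibrillarin gene *FIB2* exceeded *FIB1* by 1.04, 0.78 and -0.24 in the WT replicates and by 0.72, 1.10 and 0.68 in those of *eif3k*, a mean of 0.68 ± 0.48 (SD, n = 6), with WT replicate 3 as the sample that went the other way. *NOP56* exceeded NOP58-type by 0.77 ± 0.32 and *NAP57* exceeded *GAR1* by 0.87 ± 0.52 (SD, n = 6), both in 6 of 6 samples. *NAP57* and *NHP2* differed by 0.22 ± 0.58, with the sign of the difference positive in 3 of 6. The mean difference of these genes was 0.026 without WT replicate 3, where *NAP57* exceeded *NHP2* by 1.17, while the other pairs had 0.86, 0.67 and 0.70. These are differences between probe sets, which may respond unequally, and no test was made of them.

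Placed among the brighter probe sets of its own sample, *FIB2* ranked high in 5 samples, with 95.6% to 98.1% of brighter probe sets at or below its TL, and at 64.6% in WT replicate 3. The corresponding ranges over all 6 samples were 77.6% to 96.4% for *NAP57*, 72% to 94.3% for *NOP56*, 74% to 87.2% for *FIB1* and 69.3% to 94.6% for *NHP2*. *NAP57* and *NOP56* were at 96.4% and 94.3% in WT replicate 3, and *NAP57* had its highest rank there. NOP58-type (53.7% to 76.6%) and *GAR1* (52.1% to 78.6%) were above the middle in all samples. *NUC1* lay at 65.5% to 82.7% in 5 samples and at 16.5% in WT replicate 3.

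**Figure D3:**
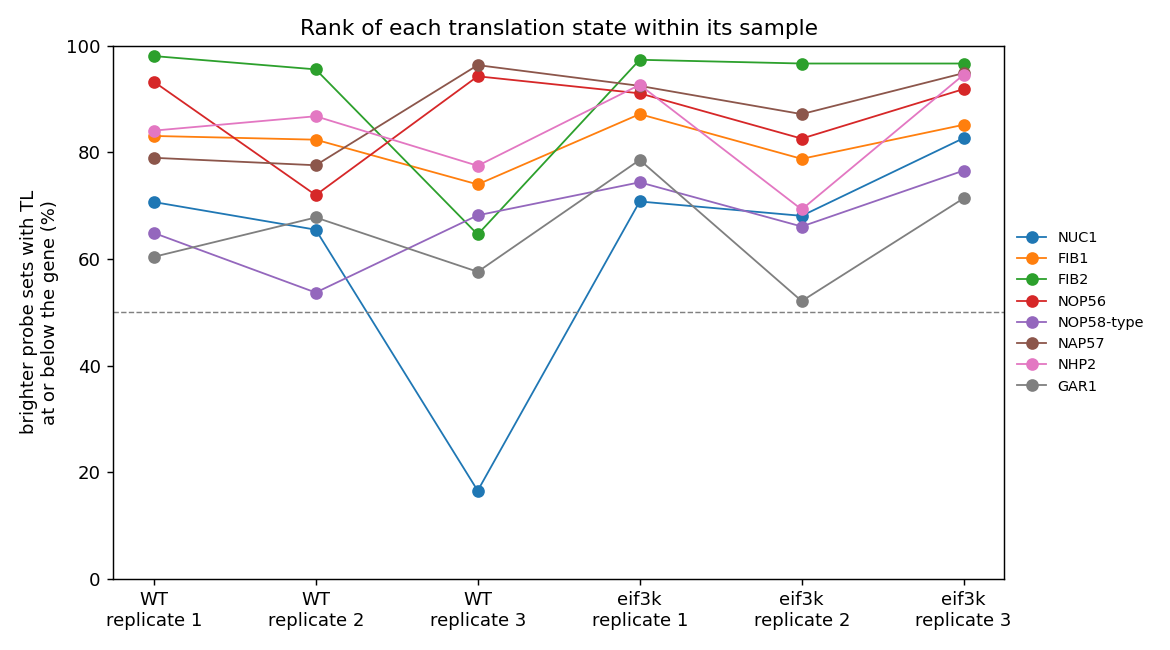
Share of the 7182 brighter probe sets whose TL in the same sample was at or below that of the gene (vertical axis, percent), for the 8 genes with a mean log2 signal of at least 5, with lines joining the values of 1 gene. All 8 lie above the dashed line at 50% in 5 samples, and in WT replicate 3 *NUC1* alone falls below it, at 16.5%.

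The comparison of *eif3k* with WT asked whether loss of eIF3k altered the loading of these mRNAs, and none of the 9 passed the test. In TL the background was 0 calls among 22746 probe sets (0%), with 612 at an unadjusted p under 0.05, so the test separated no mRNA of the array. The TL difference, *eif3k* minus WT, was above 0 for 8 of 9 probe sets, with a median of 0.30 beside 0.19 for the brighter probe sets, of which 65.8% were above 0. The count was 8 of 9 with a median of 0.14 after quantile normalization, and 7 of 9 with a median of 0.12 after centring. Much of the difference came from WT replicate 3. In array batch 1 alone the median was 0.07, and without WT replicate 3 it was 0.08, with 6 of 9 above 0.

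The NOP58-type gene had the smallest p of the 9 and its TL values did not overlap between genotypes, at 0.03 to 0.39 in WT and 0.54 to 0.70 in *eif3k*. The difference was 0.42 (SE 0.11, unadjusted p = 0.0134, adjusted p = 0.823), and it was 0.31, 0.34 and 0.62 in replicate pairs 1, 2 and 3 and 0.34 without WT replicate 3. *NUC1* did not overlap either, with a difference of 0.89 (SE 0.69, adjusted p = 0.823) that consisted of 0.05, 0.09 and 2.53 in the replicate pairs and was 0.15 without WT replicate 3. Non-overlap with *eif3k* higher was seen for 2 of 9 here and for 4.16% of all probe sets and 6.92% of the brighter ones. For the other 7 the genotypes overlapped. The TL differences of *NAP57* (0.62, 0.40 and -0.11) and *NOP56* (-0.12, 0.39 and -0.07) changed sign between pairs, with means of 0.30 (SE 0.21) and 0.07 (SE 0.23), and of 0.525 and 0.13 without WT replicate 3. The *NOP56* mean was -0.11 after quantile normalization or centring.

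Outside polysomes the signals of all 9 probe sets were on average lower in *eif3k* than in WT, by amounts that did not pass the test. The median NP difference was -0.31, where 43% of the brighter probe sets were below 0 and their median was 0.06, and after quantile normalization it was -0.37, again with 9 of 9 below 0. The largest difference was that of *NAP57* at -0.65 (SE 0.37, adjusted p = 0.876), with -1.06, -0.59 and -0.30 in the replicate pairs. *FIB1* was lower by -0.40, -0.24 and -0.60, *NUC1* by -0.49, -0.22 and -0.25, NOP58-type by -0.58, -0.35 and -0.12, and *NOP56* by -0.23, -0.30 and -0.26. These are 5 of 9 probe sets that were lower in 3 of 3 pairs, as were 7.29% of all probe sets and 12.4% of the brighter ones. *FIB2*, *NHP2*, *GAR1* and NOP56-type had 1 pair above 0 each. The groups overlapped for all 9, and no probe set on the array was called in NP (0% of 22746, with 721 at an unadjusted p under 0.05). The size of the difference depended on which samples were included. Without WT replicate 1 the median was -0.16 with 8 of 9 below 0, and without WT replicate 2 it was -0.21 with 9 of 9. Without replicate 1 in both genotypes it was -0.235 with 7 of 9 below 0. Without *eif3k* replicate 3 the median was -0.06 with 7 of 9 below 0, and without WT replicate 3 it was -0.53 with 9 of 9 below 0, where *NAP57* had -0.95. Either omission leaves replicate 3 and its array batch in only 1 genotype, and the part of this in the values was not tested. In array batch 1 alone the median was -0.32, again with 9 of 9 below 0. The markers of aerial tissue, root and dividing cells had medians of -0.05, -0.01 and 0.09 in the same comparison. The 2 seed markers had 0.41, with *CRA1* at 0.79, whose NP signal was 5.25 in *eif3k* replicate 3 and at most 2.91 on the other NP arrays. The part of these markers in the result was not tested.

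In polysomes the sign depended on which samples were included. With all samples 5 of 9 probe sets had a higher mean PL signal in *eif3k*, with a median of 0.07 beside 0.24 for the brighter probe sets, of which 74.2% were above 0, and none was called (0% of 22746, with 436 at an unadjusted p under 0.05). After quantile normalization 3 of 9 were above 0, with a median of -0.15. Without *eif3k* replicate 1 or 2 the median was -0.085 or -0.065, with 6 or 5 of 9 below 0. Without WT replicate 3 all 9 were below 0, with a median of -0.42, where 49.7% of the brighter probe sets were below 0. That comparison keeps *eif3k* replicate 3, in which the *eif3k* PL signal of all 9 was lowest, and the part of this in the value was not tested. In array batch 1 alone all 9 were below 0 as well, with a median of -0.18, where 42.2% of the brighter probe sets were below 0. *NAP57* was the only 1 of the 9 with a lower PL signal in 3 of 3 pairs, at -0.44, -0.19 and -0.41, as were 5.05% of all probe sets and 6.31% of the brighter ones. *NUC1* went from -0.44 and -0.13 in pairs 1 and 2 to 2.28 in the pair with WT replicate 3.

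**Figure D4:**
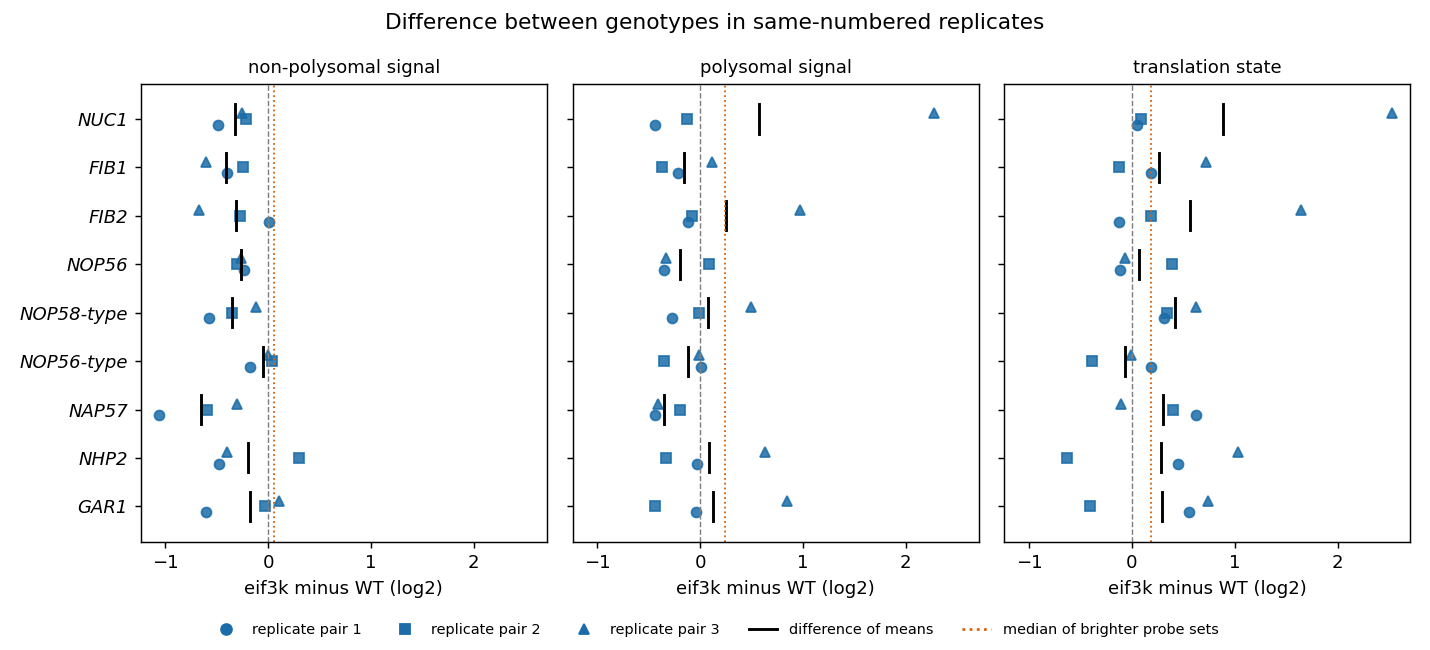
Difference between *eif3k* and WT (log2, horizontal axis) in each pair of same-numbered replicates, for NP signal, PL signal and TL of the 9 probe sets, with black bars for the difference of means and a dotted line for the median of the brighter probe sets. In NP the black bars of all 9 lie below 0, and in PL and TL the triangles of pair 3 lie far to the right for *NUC1* (2.28 and 2.53) and *FIB2* (0.97 and 1.64).

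The snoRNP signals moved together with the replicate. In *eif3k* the NP and the PL signal of all 9 probe sets was lowest in replicate 3, which was the case for 38.2% and 48.1% of the brighter probe sets. In WT it held for 7 of 9 in NP and 8 of 9 in PL, against 50.7% and 72.1%. The median over the 9 of replicate 3 minus the mean of replicates 1 and 2 was -0.76 in NP and -1.11 in PL of WT, where the brighter probe sets had medians of -0.145 and -0.665. In *eif3k* it was -0.38 in NP and -0.485 in PL, where the brighter probe sets had 0.015 and -0.095. Aerial markers were lower in PL of replicate 3 as well. *CAB3*, for a light-harvesting protein, had PL signals of 14.38, 14.23 and 13.13 in WT replicates 1 to 3 and of 14.59, 14.61 and 12.57 in those of *eif3k*, and *LHCA1* had 13.25, 13.36 and 12.62 and 13.44, 13.41 and 12.08, while *RBCS1A* stayed at 14.77 to 14.86. The seed markers were highest in *eif3k* replicate 3, and the part of these markers in the pattern was not tested. Replicate 3 is also the only one of its array batch, so replicate and batch cannot be told apart. Across the 12 arrays the signal of *FIB1* had a correlation of r = 0.965 with the mean of the other 8 probe sets, that of *NUC1* 0.661 and that of the dim NOP56-type gene 0.495, and the other 6 lay between 0.764 and 0.943.

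The 5 brightly measured probe sets whose signal followed the mean of the 9 most closely over the 12 arrays, among 2697 candidates with a mean log2 signal of at least 7, were those of *SUC2*, a sucrose transporter of the phloem (r = 0.968), *EBP1* (AT3G51800, r = 0.964), a 40S ribosomal protein S26 gene (AT2G40590, r = 0.962), *BTF3* (r = 0.960) and *BBC1*, a 60S ribosomal protein L13 gene (r = 0.957). The probe set of AT2G40590, like those of *RBCS1A* and *CAB3*, is of a type shared between similar genes, which may add to its signal. The arrays share fractions, replicates and batches, and these coefficients describe likeness only.

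Other genes of the same particles and of ribosome biogenesis showed how far the pattern reached. Of 10 probe sets for snoRNP paralogs and assembly factors, 1 was called higher in PL in WT and 2 in *eif3k*, where 2.01% and 2.18% of all probe sets were, with median TL values of 0.05 and 0.00. Only 4 of the 10 counted as brighter. With dim probe sets left out of the fit these 4 had medians of 0.49 and 0.715, beside -0.10 and 0.09 over all brighter probe sets. Of the 4, 2 were called higher in each genotype, as were 724 of 7182 probe sets in WT and 987 in *eif3k* in that fit. The genes called with all probe sets in the fit were for the SNU13-type protein, which binds the guide RNA of box C/D snoRNPs. AT4G22380 had TL values of 1.54, 1.23 and 1.11 in WT and 1.56, 1.73 and 1.44 in *eif3k* (means 1.29 and 1.58, adjusted p = 0.0103 and 0.00951). With the replicate block adjusted p was 0.054 in WT, which ended that call, and 0.0475 in *eif3k*. The WT call was lost without WT replicate 2 (adjusted p = 0.077), and the *eif3k* call without *eif3k* replicate 1 or 2 (0.0596 and 0.0652). AT5G20160 had 1.80, 1.76 and 0.40 in WT and 1.48, 2.19 and 2.25 in *eif3k*, and was called in *eif3k* (mean 1.97, adjusted p = 0.0479, 0.145 with the block). This call was lost without WT replicate 1 or 2, or any *eif3k* replicate, and without WT replicate 3 AT5G20160 was also called in WT (mean 1.78, adjusted p = 0.0386). The third gene of this type, AT4G12600, had 0.04, -0.17 and -1.18 in WT and 0.08, -0.19 and -0.33 in *eif3k*, and was not called. *NOP10*, the smallest of the H/ACA proteins, had TL values of -0.41 to -0.23 in all 6 samples, with means of -0.32 and -0.30 (adjusted p = 0.0392 and 0.0455) that lay under the minimum change.

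With all samples in the fit, none of 32 probe sets for other ribosome biogenesis factors was called higher in PL. In WT 3 were called lower, against 2.82% of all probe sets, and in *eif3k* 0, against 2.55%. In *eif3k* 12 of the 32 had an unadjusted p under 0.05, some with TL above 0 and some below. This was the case for 22.3% of all probe sets and 45.1% of the brighter ones. The 32 had median TL values of -0.23 in WT and 0.06 in *eif3k*. Over the 13 left when dim probe sets were dropped the medians were -0.66 and 0.027, and 3 and 2 of these were called lower. In that fit 968 of 7182 probe sets were called lower in WT and 831 in *eif3k*. *PRH75*, a nucleolar RNA helicase gene, had TL values of -2.45, -2.10 and -4.20 in WT and -1.94, -2.36 and -1.90 in *eif3k*, with means of -2.92 (adjusted p = 0.0353) and -2.07 (0.0715). *DIM1A*, for a methylase of ribosomal RNA, had means of -2.09 (0.0448) and -1.61 (0.0755), and *BOP1*, for a factor of large-subunit maturation, -1.30 (0.0446) and -0.84 (0.108). With the block *PRH75* (0.121) and *BOP1* (0.116) were not called in WT, and *DIM1A* was called in both genotypes (0.041 and 0.0474). Without WT replicate 3 *PRH75* was called in both genotypes, at -2.28 and -2.07 (0.0213 and 0.013), and *DIM1A* and *BOP1* were not (0.103 and 0.0979 in WT). That fit called 2 of the 32 lower in each genotype, beside 695 of 22746 probe sets in WT and 833 in *eif3k*. It also called 1 of the 32 higher in *eif3k*, beside 1045 of 22746. Without *eif3k* replicate 3, or without replicate 3 in both genotypes, 1 was also called higher in *eif3k*, beside 87 and 564 of 22746. When each sample was left out in turn, the WT call of *PRH75* was lost in all but the case without WT replicate 3. That of *BOP1* was lost in all but the case without WT replicate 1 (0.0326), and that of *DIM1A* in each case. In TL, PL and NP neither list had a call between the genotypes.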

How the data were processed

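Probe sets were taken where the upper-case locus of the deposited table held a member, and the members and gene lists were chosen with earlier results of these data known. The authors deposited log2 signals of probe sets after background correction and normalization, by GCRMA per the submitters' notes and by RMA per the methods. For the normalization no software version, and no genome build, is given in the sources used here. The 6 TL columns of the authors were not used, and TL was computed from the signals. The authors' series matrix holds the same log2 values. Of 22810 probe sets 64 controls were left out. The number of arrays limits the precision.

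TL in each genotype was tested against 0 in 1 fit over 6 samples, and PL, NP and TL were compared between genotypes, using lmFit and eBayes of limma 3.58.1 under R 4.3.3. Tests were two-sided, with Benjamini-Hochberg adjustment over 22746 probe sets, and a call needed a change of at least 1 besides an adjusted p under 0.05. All members are named; from other lists, those called (the 4 with the smallest p if more). Scripts were tested on simulated data. Plots used matplotlib 3.10.9. Replicates are numbered in the labels, and p-values reflect only how these samples spread, part of which may be technical. Deviations of same-numbered samples from their group means correlated at 0.13 to 0.27 in 9 of 9 comparisons, all above 0.1. In 8 of the 9 this exceeded the correlations with other numbers. Differences between genotypes were therefore also listed by same-numbered pairs. The tests between genotypes did not use these pairs, except under the replicate block. The likeness of same-numbered samples cannot be told apart from array batch. No pair of arrays held identical values. The 10 loci were found in the TAIR10.1 gene table.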

Additional observations from a re-analysis of the deposited data

How the results depend on the processing

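The fit was repeated under 19 alternatives. Between genotypes no member was called in TL, PL or NP under any that could be fitted. For TL against 0, the 2 calls in WT (*NAP57* and *NOP56*) became 0 with the replicate block, with fractions not paired and with a fit on the genotype alone, 1 with array batch as a term or after quantile normalization, and 3 with centred TL or dim probe sets left out. The 2 calls in *eif3k* became 0 with the replicate block, 1 with array batch as a term or a fit on the genotype alone, 3 after quantile normalization (*FIB2*, *NOP56* and *NHP2*, with *NAP57* lost), 4 with centred TL and 5 with dim probe sets left out. With fractions not paired they were *FIB2* and *NAP57*, with *NOP56* lost. Calls higher in PL over all probe sets moved too, from 458 of 22746 in WT and 495 in *eif3k*. They were 666 and 619 after quantile normalization and 1046 and 1058 with centred TL. With dim probe sets left out they were 724 and 987 of 7182. A fit on the genotype alone gave 0 and 180. Leaving out samples gave 0 to 2 member calls in WT and 0 to 4 in *eif3k*. The cause was not tested. The replicate block changed no other call of a member. It lowered the count over all probe sets from 1100 to 394 in WT and from 1076 to 364 in *eif3k*, and without WT replicate 3 the counts were 1550 and 1878. Of 787 single values 42 changed sign. After quantile normalization the *eif3k* minus WT values were -0.11 (*NOP56*) and 0.024 (NOP56-type) in TL and 0.0092 (NOP56-type), -0.17 (NOP58-type), -0.15 (*NHP2*) and -0.12 (*GAR1*) in PL. With centred TL, *NOP56* had -0.11 between genotypes and NOP56-type -0.06 in *eif3k*. With samples left out, TL in WT ranged from -0.59 to 0.53 (*NUC1*) and from -0.06 to 0.21 (NOP56-type). The TL difference ranged from -0.0083 to 0.46 (*FIB1*), -0.085 to 0.93 (*FIB2*), -0.16 to 0.23 (*NOP56*), -0.20 to 0.09 (NOP56-type) and -0.09 to 0.74 (*NHP2*). The PL difference ranged from -0.49 to 1.18 (*NUC1*), -0.52 to 0.08 (*FIB1*), -0.26 to 0.52 (*FIB2*), -0.42 to 0.093 (*NOP56*), -0.24 to 0.33 (NOP58-type), -0.51 to 0.46 (*NHP2*) and -0.35 to 0.42 (*GAR1*). The NP difference ranged from -0.55 to 0.023 (*NOP56*), -0.09 to 0.025 (NOP56-type), -0.61 to 0.25 (*NHP2*) and -0.43 to 0.04 (*GAR1*). Where an arm is left with few samples the spread is pooled over all. Values near the lowest deposited signal, as for NOP56-type, set no TL.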
